A study of Homo sapiens with 39 samples.

Results

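WM115 is an established human melanoma line grown from a primary tumour. Clones 4.1 and 4.2 of WM115 both carry a deletion of the regulatory region that the labels call R4, near SOX10, and the comparison here is of clone 4.1 with clone 4.2. The members are the 6 libraries whose titles name clone 4.1 (3 libraries) or clone 4.2 (3 libraries), of 39 libraries in the series. Both groups have the same genotype label, the same tissue label (skin) and no treatment label, and they differ by clone only. The libraries titled WT (wild type, 4 libraries) serve as a reference level, and their titles do not say whether WT is the uncloned parent. Each group is 1 clone, so a difference between them is a difference between 2 clones. The labels do not say that the libraries of a clone came from separate cultures. The p-values rest on the spread between libraries within groups, pooled over all 21 WM115 libraries, and this spread may be technical. Beside both R4 clones and WT these are R1 clone 1.1 (5 libraries) and R1 clone 1.2 (3 libraries), named for another region, R1. The last group is clone 1.3 (3 libraries), whose title and genotype label disagree on the region. Values are gene-level TPM, which express each gene's share of its library after correction for gene length. The series asks what loss of the SOX10 regulatory regions does to expression. The comparison of both R4 clones shows what still differs between cells that share the deletion.

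SOX10 is a transcription factor of the neural crest that drives the melanocyte programme through MITF and the pigment genes, and it also acts in Schwann cells and other glia. Melanoma lines are genetically and epigenetically mixed, and a clone keeps the state of the cell from which it grew. Melanoma cells are also known to move between a pigmented state and less differentiated states in which NF-kB signalling and secreted inflammatory proteins are raised.

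Between 14583 and 15092 genes reached 1 TPM in the libraries of clone 4.1, and between 14413 and 14900 in those of clone 4.2. Read counts were not used here, so the depth is unknown. Pearson's r across genes, on log2(TPM + 1), was 0.977 to 0.985 between libraries of clone 4.1, 0.976 to 0.978 between libraries of clone 4.2 and 0.951 to 0.969 between the clones. Mitochondrially encoded genes took 6.34%, 5.24% and 10.8% of TPM in clone 4.1 and 4.71%, 12.7% and 11.2% in clone 4.2. The clones therefore overlap in mitochondrial share, with 2 of 3 libraries of clone 4.1 and 1 of 3 of clone 4.2 under 7.5%. Of 9 immune markers, 8 were under 1 TPM in every library of both clones, including PTPRC, CD3E, CD14 and LYZ, and the list summed to 1.61 to 3.01 TPM in clone 4.1 and 1.83 to 2.19 TPM in clone 4.2. Of 8 endothelial markers 6 were under 1 TPM in every library of clone 4.1 and 7 in clone 4.2, including CDH5, VWF and TIE1. Of 11 keratinocyte and epithelial markers 7 were under 1 TPM in every library of both clones, including EPCAM, CDH1 and KRT5, and the list summed to 190 to 243 TPM in clone 4.1 and 202 to 227 TPM in clone 4.2. Of 10 fibroblast markers 8 reached 1 TPM in every library of clone 4.1 and 6 in clone 4.2, with sums of 638 to 720 TPM and 624 to 824 TPM.

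SOX10 (ENSG00000100146, chromosome 22, 37970686 to 37987422, minus strand, GRCh38) had 465, 360 and 390 TPM in the libraries of clone 4.1. It had 506, 321 and 438 TPM in clone 4.2, and 449 to 553 TPM in WT. The libraries of the 2 clones overlap. The log2 difference for SOX10, clone 4.1 minus clone 4.2, was -0.04 (SE 0.75, limma adjusted p 0.989). That SE is wide because the fit pools the spread of all WM115 groups, in 1 of which a library has very little SOX10. Without that library (R1 clone 1.2, library 3) the SE was 0.18 with the same difference. The SOX10 difference therefore stayed small beside its error, but its sign changed when library 2 of clone 4.1 was left out (0.04) or library 1 of clone 4.2 (0.10).

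Genes in the neighbourhood of SOX10 on chromosome 22 were listed as a group of 33, of which 30 were tested. None was called, with a median log2 difference of -0.05. CDC42EP1, an effector of the GTPase CDC42, came nearest, with 16.8 to 18.0 TPM in clone 4.1 against 6.83 to 10.997 TPM in clone 4.2 (log2 difference 0.87, adjusted p 0.0366). Its libraries did not overlap, but the difference fell short of the minimum size. ANKRD54 fitted lower by 0.53 with an adjusted p of 0.122. The melanocytic identity of both clones was partial. MLANA and TYR were under 1 TPM in every library of both clones, and TYRP1 in every library of clone 4.2. The 8 melanocytic markers summed to 390 to 504 TPM in clone 4.1 and to 362 to 548 TPM in clone 4.2, against 800 to 2567 TPM in WT, and most of the clones' sum was SOX10 itself.

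A call required a log2 difference of 1 or more in either direction together with a limma adjusted p under 0.05. Of 16997 genes tested, 447 (2.63%) were called between the clones. Of these, 310 (1.82% of all genes) were higher in clone 4.1 and 137 (0.806%) were lower. Protein-coding genes made up 354 of the calls and lncRNAs 67. Without the minimum difference 1148 genes (6.75%) passed, 679 higher (3.99%) and 469 lower (2.76%). The count rested partly on library 2 of clone 4.2, without which 297 genes were called. Of the 64 called genes named by rule 40 stayed called whichever library of the clones was left out. Without library 2 of clone 4.2 alone the calls of LCN2, SOX6, LGALS7 and HOXB8 were lost, without its library 1 that of H19, and without library 2 of clone 4.1 that of WNT9A. The calls of MGST1 and AC008575.1 were lost without any of the 6 libraries, and those of EPHB3, FGF13, MMP2, MMP8, PDGFD, PRAME, SEMA3B, SOD2, TESC and VLDLR without any of 4 or 5 of them. NKD2, S100A5, S100A7, S100A13, PCDHGA10 and PRRX1 lost theirs without any of 2 or 3. Within the libraries above 7.5% mitochondrial share (1 of clone 4.1, 2 of clone 4.2) 78 genes were called, and within those at or below it (2 and 1) 160 genes were called.

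**Figure D1:**
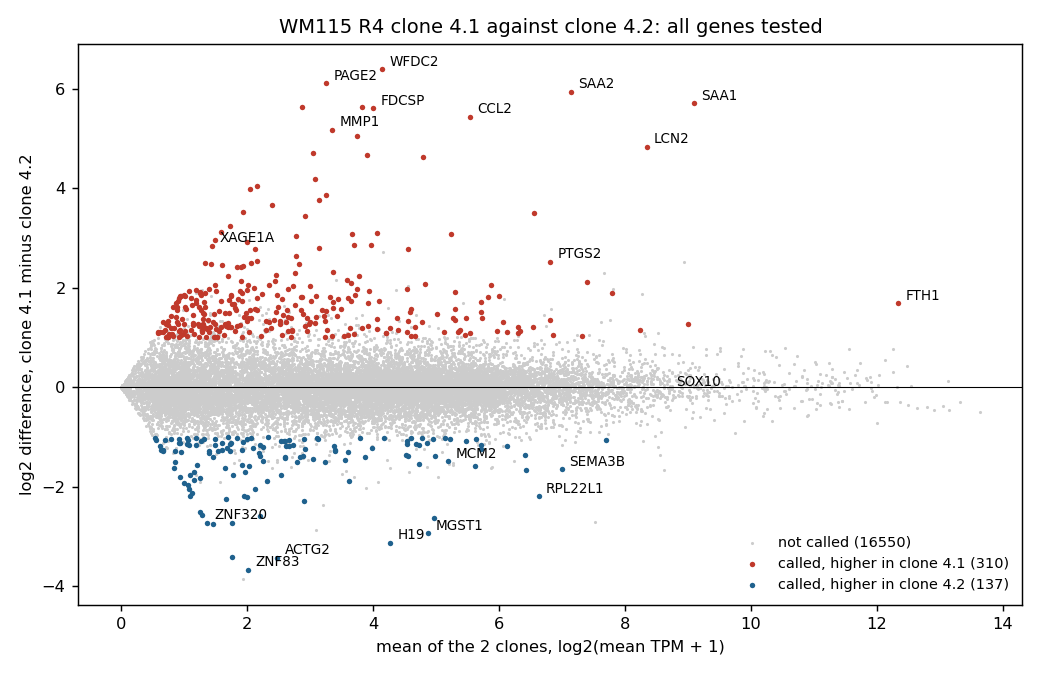
Each point is 1 of 16997 genes, with the mean level of the clones on the horizontal axis, as log2(mean TPM + 1), and the log2 difference, clone 4.1 minus clone 4.2, on the vertical axis. The 310 genes called higher in clone 4.1 (red) reach a log2 difference of 6.39, the 137 called lower (blue) reach -3.67, and SOX10 lies near 0.

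The genes furthest higher in clone 4.1 included WFDC2, PAGE2, SAA2, SAA1, APOC2, FDCSP, CCL2 and MMP1 and the lncRNAs AC113346.1 and OVAAL. WFDC2 (ENSG00000101443, chromosome 20, 45469706 to 45481532, plus strand), a secreted protein with whey-acidic domains, had 114, 181 and 190 TPM in clone 4.1. In clone 4.2 WFDC2 had 1.34, 0.601 and 0.809 TPM, close to WT at 0.848 to 1.80 TPM. All clone 4.1 libraries were far above all others, with a log2 difference of 6.39 (SE 0.31, adjusted p 8.89e-11). APOC2, the cofactor of lipoprotein lipase, had 42.9 to 60.9 TPM in clone 4.1, was listed at 0 in 2 libraries of clone 4.2 and had 0.114 TPM in the other (log2 difference 5.63). FDCSP, a small secreted peptide first found in follicular dendritic cells, had 61.7, 159 and 123 TPM in clone 4.1 and 1.69, 0.989 and 1.01 TPM in clone 4.2 (log2 difference 5.61). The lncRNA AC113346.1 had 88.0 to 107 TPM in clone 4.1 and 0.644 to 1.86 TPM in clone 4.2. For WFDC2, APOC2, FDCSP and AC113346.1 the WT libraries lay at or below 1.82 TPM, so clone 4.1 was the group apart. The lncRNA OVAAL showed another order, with 63.7 to 90.4 TPM in clone 4.1, 16.3 to 37.2 TPM in WT and 0.807 to 1.88 TPM in clone 4.2.

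Of the gene lists, the one of acute-phase and NF-kB inflammatory genes had the largest median difference. Of 28 listed genes 27 were tested, and 13 were called higher in clone 4.1 and 0 lower, against 1.82% and 0.806% of all genes. The median log2 difference over the 27 was 1.85, against -0.0049 over all genes, and 26 of 27 fitted higher. The libraries of the clones did not overlap for 22 members, 21 higher and 1 lower in clone 4.1, where 14.6% and 13.2% of all genes did not overlap in those directions. In bulk RNA, more cells of a kind and more RNA per cell cannot be told apart. The mitochondrial shares given above did not separate the clones. Within the libraries above 7.5% the median of the list was 1.92 with 1 member called and 19 of 27 at an unadjusted p under 0.05, and within those at or below it the median was 2.02 with 10 called.

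SAA1 and SAA2 encode serum amyloid A proteins, the classical acute-phase reactants, and lie side by side on chromosome 11 (SAA2 18239223 to 18248643, minus strand; SAA1 18266174 to 18269977, plus strand). SAA1 had 4935, 2246 and 3477 TPM in clone 4.1 and 83.7, 20.2 and 149 TPM in clone 4.2. WT spread from 53.6 to 737 TPM between them. The log2 difference for SAA1 was 5.71 (SE 0.92, adjusted p 6.30e-04). SAA2 had 1555, 669 and 975 TPM in clone 4.1 and 15.9, 7.23 and 30.5 TPM in clone 4.2 (log2 difference 5.94). The 2 genes are near-identical in sequence, so the split of reads between them is uncertain. CCL2, the chemokine that draws monocytes, had 323, 111 and 336 TPM in clone 4.1 and 1.42, 2.17 and 18.4 TPM in clone 4.2 (log2 difference 5.44). LCN2, which binds bacterial iron carriers, had 1308, 2022 and 1158 TPM against 45.2, 18.3 and 146 TPM (log2 difference 4.84, adjusted p 0.0122). IL1A, an alarm cytokine upstream of NF-kB, had 48.2, 28.1 and 48.5 TPM in clone 4.1 and 0.508, 0.442 and 0.831 TPM in clone 4.2. IL32, a cytokine induced by NF-kB, had 31.2, 34.3 and 39.4 TPM in clone 4.1 and 1.47, 0.684 and 0.795 TPM in clone 4.2. In each of these 6 genes every library of clone 4.1 was above every library of clone 4.2 and of WT.

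The other 7 called members ranged from a log2 difference of 1.205 to 3.50 and included both effectors and inhibitors of the pathway. They lie beyond the 6 largest that the naming rule takes and were chosen after their values were seen. C3, the central complement component, had 363, 267 and 278 TPM in clone 4.1 and 46.9, 17.7 and 20.01 TPM in clone 4.2 (log2 difference 3.50). PTGS2, the inducible cyclooxygenase, had 312, 236 and 245 TPM in clone 4.1 and 67.3, 38.7 and 34.8 TPM in clone 4.2, with WT at 2.25 to 9.63 TPM, so both clones were above WT. NFKBIA, the inhibitor that NF-kB itself induces, had 105, 53.6 and 118 TPM in clone 4.1 and 17.7, 19.8 and 48.5 TPM in clone 4.2 (log2 difference 1.72). BIRC3 (log2 difference 2.47), SOD2 (1.88), TNFAIP2 (1.85) and the NF-kB subunit RELB (1.205) were the others. For SOD2 the WT libraries, at 120 to 773 TPM, spanned the whole range of clone 4.1. IL1B had 1268, 1050 and 934 TPM in clone 4.1 and 215, 83.0 and 359 TPM in clone 4.2 without passing the test (adjusted p 0.104). CXCL8 had 651, 313 and 708 TPM against 73.0, 125 and 314 TPM (adjusted p 0.297). The 1 member that fitted lower was CFB, complement factor B, with 3.64 to 4.03 TPM in clone 4.1 and 7.58 to 9.67 TPM in clone 4.2 (adjusted p 0.101).

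**Figure D2:**
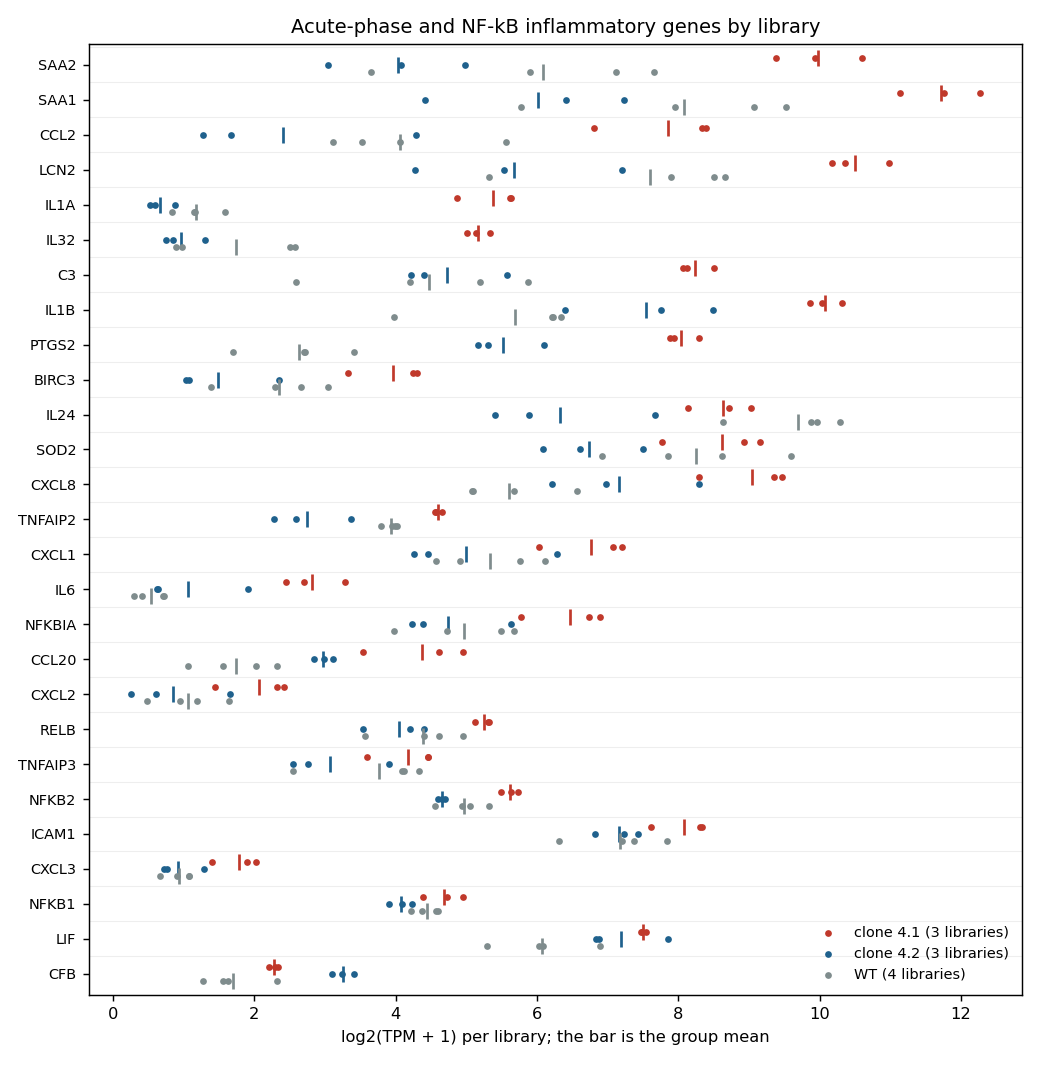
Each row is 1 of the 27 tested acute-phase and NF-kB genes, and each point is 1 library on a log2(TPM + 1) scale, with a bar at the group mean (clone 4.1 red, clone 4.2 blue, WT grey). In the upper rows clone 4.1 lies above clone 4.2 and WT, as for SAA1 at 2246 to 4935 TPM against 20.2 to 149 TPM, and in the last row, CFB, clone 4.1 lies below clone 4.2.

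Of the 13 called members 8 had a window around their start in RefSeq (GRCh38.p14). The NF-kB binding consensus (the kappaB motif, searched on both strands) was found in 4 of those 8 (LCN2, IL32, BIRC3 and NFKBIA) and not in the other 4 (IL1A, PTGS2, SOD2 and TNFAIP2). It was found in 9.96% of 35116 windows or 11.8% of the 27305 genes that have one. The motif is a loose one, and a match on one strand can also match on the other. A match is a description of the letters only, and binding was not measured. The promoters of BIRC3, NFKBIA and LCN2 are shown because they hold the motif, so they are examples and not a sample of the list. Each stretch is the part of the window before the start of the gene, 5′ to 3′, with the kappaB matches in capitals. The matches begin 199 and 135 bases before the start of BIRC3 (chr11:102317284-102317483, plus strand), 81 bases before NFKBIA (chr14:35404750-35404949, minus strand) and 175 bases before LCN2 (chr9:128149253-128149452, plus strand).
BIRC3: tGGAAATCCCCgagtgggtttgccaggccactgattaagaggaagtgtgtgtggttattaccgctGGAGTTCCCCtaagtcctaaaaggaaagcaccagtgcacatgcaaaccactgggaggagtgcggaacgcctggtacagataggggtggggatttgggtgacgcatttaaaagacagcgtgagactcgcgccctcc
NFKBIA: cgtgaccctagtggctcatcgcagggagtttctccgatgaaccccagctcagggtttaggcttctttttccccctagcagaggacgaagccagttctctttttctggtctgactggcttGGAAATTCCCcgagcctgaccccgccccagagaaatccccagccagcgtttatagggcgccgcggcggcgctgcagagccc
LCN2: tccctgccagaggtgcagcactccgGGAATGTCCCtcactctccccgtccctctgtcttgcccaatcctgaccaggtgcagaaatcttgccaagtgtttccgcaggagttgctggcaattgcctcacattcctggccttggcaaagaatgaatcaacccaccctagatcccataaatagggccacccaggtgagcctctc

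Interferon-stimulated and antigen-presenting genes had few calls. Of 25 tested interferon-stimulated genes 2 were called higher and 0 lower, against 1.82% and 0.806% of all genes, with a median log2 difference of 0.37. BST2, which tethers budding viruses to the cell surface, had 32.9, 24.6 and 36.6 TPM in clone 4.1 and 8.73, 2.15 and 1.78 TPM in clone 4.2. ISG15, a ubiquitin-like modifier, had 18.97 to 25.2 TPM against 8.69 to 9.16 TPM. None of 18 MHC class I presentation genes was called, with a median of 0.40, although 15 fitted higher. In 8 of the 18 the libraries did not overlap, all higher, against 14.6% of all genes. TAP1, a peptide transporter of that pathway, had 52.2 to 61.4 TPM in clone 4.1 and 22.3 to 35.8 TPM in clone 4.2 (log2 difference 0.92, adjusted p 0.00352), under the minimum size, and HLA-E had a difference of 0.71 (adjusted p 0.0187). None of 12 MHC class II genes was called, although all 12 fitted higher (median 0.78) and 9 did not overlap, all higher, against 14.6% of all genes. CIITA, the master regulator of class II genes, had 34.97 to 41.6 TPM in clone 4.1, 14.5 to 27.3 TPM in clone 4.2 and 46.0 to 70.8 TPM in WT (adjusted p 0.248).

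Cancer-testis antigens were the second list with many calls. These genes are normally expressed in germ cells and reappear in tumours. Of 47 listed 28 were tested, and 7 were called higher in clone 4.1 and 0 lower, against 1.82% and 0.806% of all genes. The median log2 difference was 0.33, and 14 members did not overlap, 12 higher and 2 lower, against 14.6% and 13.2% of all genes. PAGE2 (ENSG00000234068, X chromosome) had 76.0, 68.0 and 91.8 TPM in clone 4.1. In clone 4.2 it was listed at 0 in 1 library and had 0.287 and 0.160 TPM in the others, with WT at 0 to 0.160 TPM (log2 difference 6.11, SE 0.17, adjusted p 2.66e-14). XAGE1A had 6.08, 6.68 and 6.02 TPM in clone 4.1 and at most 0.043 TPM in clone 4.2. GAGE2E and PAGE1 were listed at 0 in every library of clone 4.2 and had 0.870 to 4.41 TPM and 1.05 to 2.14 TPM in clone 4.1. PRAME had 4.78, 4.80 and 16.2 TPM in clone 4.1 and 0.724, 1.14 and 2.15 TPM in clone 4.2. MAGEA10 differed in its order, with 38.0 to 45.2 TPM in clone 4.1, 38.3 to 41.1 TPM in WT and 14.5 to 20.6 TPM in clone 4.2, so clone 4.2 was the group apart. PAGE, XAGE and GAGE genes occur in near-identical copies, and their values per gene are uncertain. With genes of a mean TPM under 5 left out, 2 members were called.

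Of 24 tested matrix proteases and inhibitors, which act in matrix turnover, 4 were called higher in clone 4.1 and 0 lower, against 1.82% and 0.806% of all genes. The list as a whole was divided, with 14 fitted higher and 10 lower (median 0.10), and with 7 higher and 5 lower among the 12 that did not overlap. MMP1, the interstitial collagenase, had 63.5, 91.1 and 33.7 TPM in clone 4.1, 0.504 to 0.708 TPM in clone 4.2 and 2.18 to 4.88 TPM in WT (log2 difference 5.17, SE 0.63, adjusted p 3.57e-05). SERPINB2, an inhibitor of plasminogen activators, had 159, 153 and 91.8 TPM against 3.60, 2.81 and 7.57 TPM (log2 difference 4.63). MMP2, a gelatinase, had 327 to 379 TPM in clone 4.1 and 61.3 to 106 TPM in clone 4.2, and MMP8, another collagenase, had 12.5 to 16.6 TPM against 2.43 to 5.19 TPM. MMP1 and MMP2 were also the 2 called members of 25 genes of the undifferentiated melanoma state, whose median was 0.12. COL5A2, a fibrillar collagen chain, was the 1 called of 23 collagen genes, with 85.8 to 125 TPM against 30.8 to 49.8 TPM. None of 25 integrins and laminins was called; LAMC1 and ITGA1 came nearest, with adjusted p-values of 0.0984 and 0.0825.

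Several signalling lists had a few members that rose or fell in clone 4.1, to be read against 1.82% of all genes called higher and 0.806% called lower. Of 35 Wnt pathway genes 4 were called higher and 0 lower. SFRP2, a secreted modulator of Wnt, had 55.2, 33.9 and 51.3 TPM in clone 4.1 and 7.81, 2.55 and 4.14 TPM in clone 4.2 (log2 difference 3.11). The ligands WNT7B (1.78) and WNT9A (1.23) and the inhibitor NKD2 (1.499) were the other called Wnt genes, given here by their log2 differences. BMP2, a ligand, was the 1 called of 28 TGF-beta and BMP genes, with 8.99 to 15.2 TPM in clone 4.1 and 0.727 to 3.82 TPM in clone 4.2. Among 34 axon guidance genes 2 were called higher and 2 lower. SLIT1, a secreted repellent, had 3.24 to 6.43 TPM in clone 4.1 and 0.022 to 0.085 TPM in clone 4.2. EPHA2, a receptor that is also in the list of ERK output, had 95.8 to 138 TPM against 44.6 to 61.6 TPM. SEMA3B, a secreted semaphorin, was lower in clone 4.1, with 61.1, 57.0 and 99.4 TPM against 209, 206 and 256 TPM (log2 difference -1.65), and EPHB3 was lower by 1.23. Of 36 growth factor receptors and ligands 2 were called lower and 0 higher: FGF13 (log2 difference -1.88) and PDGFD (-1.15).

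Melanocytic and glial lists had few calls, where 2.63% of all genes were called. Among the 8 melanocytic markers MITF (9.25 to 11.2 against 15.2 to 18.3 TPM) and PMEL (1.02 to 1.27 against 2.24 to 4.46 TPM) were lower in clone 4.1 without overlap. TYRP1 (0.672 to 2.09 against 0.234 to 0.648 TPM) was higher without overlap, and the other markers overlapped. Over all genes 13.2% did not overlap in the lower and 14.6% in the higher direction. Of 17 melanin synthesis and melanosome genes 1 was called, lower in clone 4.1, with a list median of -0.07. That gene was GPR143, a melanosome receptor, with 0.208 to 0.292 TPM in clone 4.1, 1.27 to 6.08 TPM in clone 4.2 and 0.059 to 0.347 TPM in WT, so clone 4.2 was the group apart. Of 20 melanocyte regulators 1 was called higher, SOX6, with 5.40 to 7.62 TPM in clone 4.1 and 0.680 to 3.63 TPM in clone 4.2. SEMA3B was called lower among 20 neural crest and glial genes. Of 19 retinoid genes CRABP1, which binds retinoic acid, was called lower in clone 4.1, at 0.158 to 0.196 TPM against 1.40 to 6.003 TPM. THY1 was higher (log2 difference 2.55) and PRRX1 lower (-1.03) among the 10 fibroblast markers (2.63% of all genes were called), whose summed levels are given above and overlap between the clones.

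Among 21 tested galectins and S100 proteins, small calcium-binding and sugar-binding proteins, 3 were called higher and 2 lower in clone 4.1, against 1.82% and 0.806% of all genes. S100A9, a subunit of calprotectin, had 8.31, 20.9 and 11.3 TPM in clone 4.1 and 4.14, 1.95 and 0.414 TPM in clone 4.2. LGALS7, which has a near-identical copy beside it, had 17.2 to 18.9 TPM against 3.33 to 6.995 TPM. S100A7 was called with overlapping libraries, at 5.83, 10.3 and 0.959 TPM in clone 4.1 against 0.957, 0.170 and 1.02 TPM. S100A13 had 130 to 157 TPM in clone 4.1 and 276 to 347 TPM in clone 4.2, and S100A5 also fell (log2 difference -1.59). FTH1, the heavy chain of ferritin that stores iron, was the most abundant gene called. It had 10242, 8388 and 8941 TPM in clone 4.1, 3023, 2109 and 3618 TPM in clone 4.2 and 3716 to 4442 TPM in WT, 3.15-fold higher by the mean (log2 difference 1.69, SE 0.22, adjusted p 6.60e-05). FTH1 and SOD2 were the 2 called of 34 antioxidant, iron and ferroptosis genes, whose median was 0.06.

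Proliferation genes fitted lower in clone 4.1, mostly without passing the test. Of 32 S phase genes 31 fitted lower, against 50.7% of all genes, with a median log2 difference of -0.67, and 12 did not overlap, all lower, against 13.2% of all genes. MCM2, a subunit of the replicative helicase, was the only one called, with 17.9, 28.8 and 16.7 TPM in clone 4.1 and 59.4, 56.3 and 63.3 TPM in clone 4.2 (log2 difference -1.49, adjusted p 0.00340). Of 33 G2 and mitosis genes 32 fitted lower, with a median of -0.43, and none was called. CDK1, the kinase that drives mitosis, had 52.6, 75.6 and 39.8 TPM against 82.3, 110 and 92.7 TPM (adjusted p 0.196), and NUF2, of the kinetochore, had 15.7 to 21.2 TPM against 27.6 to 38.7 TPM (adjusted p 0.131). For the S phase list the median was -1.09 within the libraries above 7.5% mitochondrial share and -0.28 within those at or below it, and the part of that share was not tested further. Of 28 p53 targets and CDK inhibitors 23 fitted higher, against 49.0% of all genes, and none was called, with a median of 0.33. Of these 28, 5 had an adjusted p under 0.05 in the higher direction and 1 in the lower, against 3.99% and 2.76% of all genes. TIGAR, a p53 target that slows glycolysis, had 24.7 to 28.9 TPM in clone 4.1 and 12.6 to 15.9 TPM in clone 4.2 (log2 difference 0.84, adjusted p 0.00646). CDKN1A, which encodes the inhibitor p21, had 318 to 341 TPM in clone 4.1, 174 to 211 TPM in clone 4.2 and 297 to 329 TPM in WT (log2 difference 0.78, adjusted p 0.0103). Of 36 hypoxia and glycolysis genes 34 fitted lower (median -0.36), none was called, and 3 did not overlap (1 higher, 2 lower), a smaller share than the 27.7% of all genes.

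The remaining lists had at most 1 call each, where 2.63% of all genes were called, so these single calls say nothing about their lists. None of 77 cytosolic ribosomal proteins, 33 sterol and fatty acid genes and 13 mitochondrially encoded proteins was called, with medians of 0.05, 0.12 and -0.32. The sterol and fatty acid gene of smallest p was FADS1 (log2 difference 0.57, adjusted p 0.0692). HOXB8 (1.31) was called among 37 HOX genes and PCDHGA10 (1.04) among 16 clustered protocadherins, both higher, and VLDLR (-1.25) among 30 genes of the unfolded protein and integrated stress response, lower. Among epithelial and endothelial markers none was called.

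**Figure D3:**
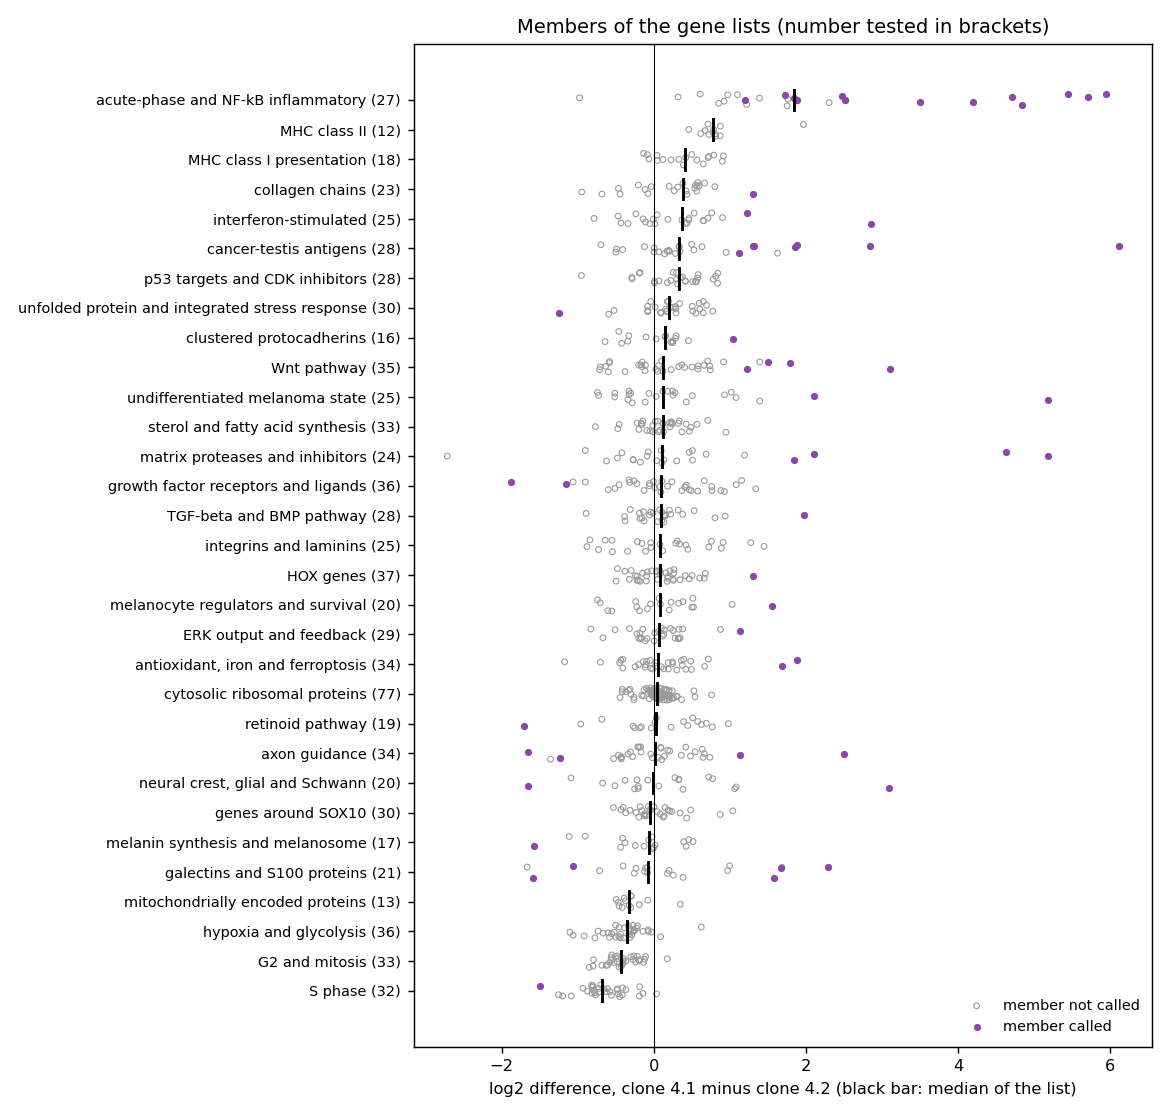
Each row is a list of genes, and each point is the log2 difference of 1 member, clone 4.1 minus clone 4.2, filled where the member was called, with a black bar at the median of the list. The acute-phase and NF-kB list stands at the top with a median of 1.85, and the S phase list at the bottom with a median of -0.67.

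The genes furthest lower in clone 4.1 were of other kinds. H19, an imprinted lncRNA, had 8.05, 3.16 and 4.82 TPM in clone 4.1, 101, 36.9 and 36.4 TPM in clone 4.2 and 2.42 to 7.38 TPM in WT, so clone 4.2 was the group apart (log2 difference -3.12). MGST1, a membrane-bound glutathione transferase, had the same order, with 6.21, 10.4 and 12.6 TPM in clone 4.1, 83.1, 69.9 and 84.4 TPM in clone 4.2 and 3.70 to 8.25 TPM in WT. ZFP42, a transcription factor known from pluripotent cells, was listed at 0 in 2 libraries of clone 4.1 and had 0.094 TPM in the other, with 8.89 to 12.1 TPM in clone 4.2. ACTG2, the smooth-muscle gamma-actin, had 0.320, 1.53 and 0.326 TPM against 12.8, 17.1 and 21.1 TPM. EPGN, a ligand of the EGF receptor, had 0.099 to 0.431 TPM in clone 4.1 and 5.93 to 10.9 TPM in clone 4.2 and was listed at 0 in every WT library. TESC, a calcium-binding protein, had 8.45 to 12.8 TPM against 137, 75.4 and 34.98 TPM. MT1A, a metallothionein of a family with similar copies, had at most 0.163 TPM in clone 4.1 and 5.10 to 6.77 TPM in clone 4.2. FAM131B (log2 difference -2.59) and AC008575.1 (-2.56), which was listed at 0 throughout clone 4.1, completed the group outside chromosome 19.

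The other 3 genes among the 12 furthest lower were zinc-finger genes that lie together on chromosome 19. ZNF83 (52594060 to 52690496, minus strand) had 0.079, 0.121 and 0.186 TPM in clone 4.1, 10.02, 15.97 and 14.7 TPM in clone 4.2 and 9.42 to 13.3 TPM in WT (log2 difference -3.67, SE 0.22, adjusted p 2.51e-09). ZNF320 (52863790 to 52897693, minus strand) was listed at 0 in every library of clone 4.1 and had 5.31, 6.57 and 5.03 TPM in clone 4.2 and 4.65 to 7.86 TPM in WT. ZNF468 (52838008 to 52890375, minus strand), which overlaps ZNF320, was also listed at 0 throughout clone 4.1, with 4.21, 4.996 and 4.94 TPM in clone 4.2 and 5.97 to 7.05 TPM in WT. Genes of this family encode DNA-binding proteins, many of which bind transposable elements and recruit repressors. For ZNF83, ZNF320 and ZNF468 clone 4.2 was near WT and clone 4.1 was the group apart.

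A block from ZNF610 to ZNF331 on chromosome 19 (52336245 to 53580269) was therefore described as a whole. Its limits were chosen after the values were seen, so its counts are descriptions. It holds 34 tested genes, of which 19 were called lower and 0 higher, 33 fitted lower, and the median log2 difference was -1.10. Of 25 protein-coding ZNF genes in it 16 were called lower, all 25 fitted lower, and 24 had every library of clone 4.1 below every library of clone 4.2. In clone 4.1, 12 of the 25 were under 0.2 TPM in every library, 8 of them listed at 0 throughout, and in clone 4.2 1 was under 0.2 TPM. ZNF808 was listed at 0 in all libraries of clone 4.1, with 3.05 to 4.17 TPM in clone 4.2. ZNF528 kept a part of its level, with 2.44, 1.12 and 3.85 TPM in clone 4.1, 13.8, 16.4 and 15.2 TPM in clone 4.2 and 10.6 to 14.2 TPM in WT. ZNF845, towards the far end, had 3.14, 2.47 and 2.90 TPM in clone 4.1 and 5.06, 4.95 and 6.03 TPM in clone 4.2 (log2 difference -0.73, adjusted p 0.00341), under the minimum size. The 20 tested genes on either side of the block, from 52012765 to 54194536, held 0 calls, with a median of -0.06 and 0 genes with non-overlapping lower libraries. The other 197 protein-coding ZNF genes on chromosome 19 had 5 calls lower and 0 higher, against 0.806% and 1.82% of all genes. Their median was -0.18, and 141 of them fitted lower, against 50.7% of all genes. In 50 the libraries of clone 4.1 lay below those of clone 4.2 without overlap, against 13.2% of all genes. They therefore also leaned lower, by less than the block. Genes of this family share sequence and some overlap each other, and whether counting used strand is not given in the sources used here, so single values are less certain than the run of them.

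**Figure D4:**
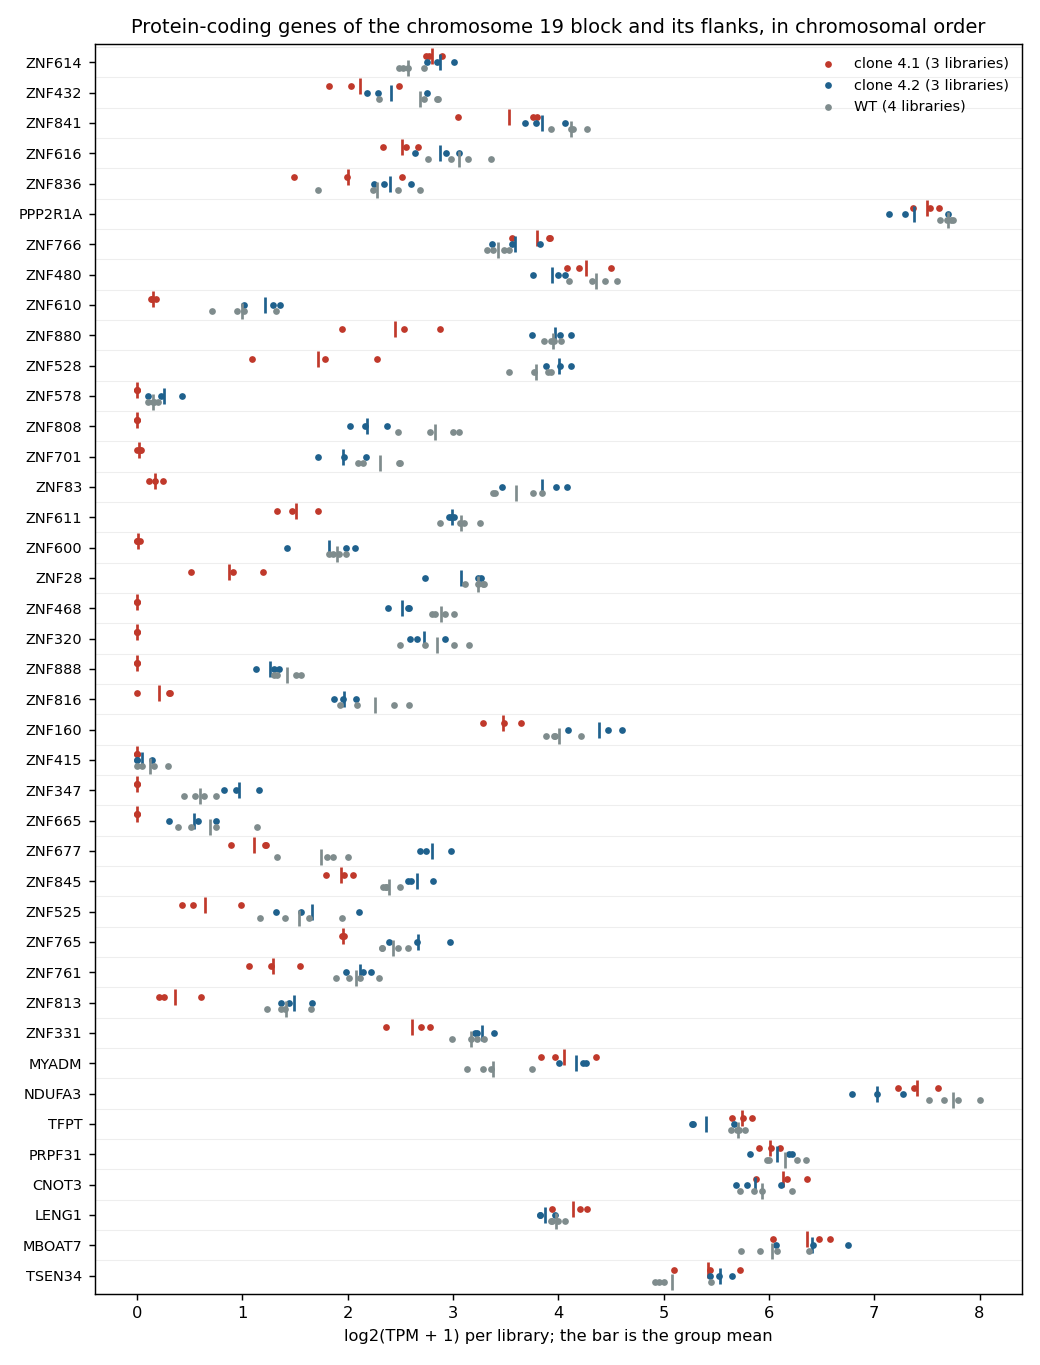
Each row is a protein-coding gene in the order of the chromosome, from ZNF614 to TSEN34, and each point is 1 library on a log2(TPM + 1) scale, with a bar at the group mean (clone 4.1 red, clone 4.2 blue, WT grey). From ZNF610 to ZNF331 the points of clone 4.1 lie to the left of clone 4.2 in 24 of 25 genes, at 0 for 8 of them, while the rows above and below the block hold no called gene.

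Promoters of 3 genes of the block are shown as examples, 1 listed at 0 in clone 4.1 and 2 that kept a part of their level, chosen after the values were seen. RefSeq (GRCh38.p14) gives a window for 20 genes of the block. In these windows the dinucleotide CG occurred 11 to 28 times, with a median of 19.5, against a median of 11 over 35116 windows. DNA methylation and chromatin were not measured. Each stretch runs 5′ to 3′ towards the start of the gene, with every CG in capitals. ZNF808 (chr19:52527468-52527667, plus strand) was listed at 0 in clone 4.1. ZNF528 (chr19:52397649-52397848, plus strand) and ZNF845 (chr19:53333549-53333748, plus strand) kept a part of their level.
ZNF808: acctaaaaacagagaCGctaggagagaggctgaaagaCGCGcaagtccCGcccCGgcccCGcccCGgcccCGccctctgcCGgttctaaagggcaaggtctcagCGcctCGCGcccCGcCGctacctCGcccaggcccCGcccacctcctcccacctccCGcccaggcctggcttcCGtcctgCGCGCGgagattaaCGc
ZNF528: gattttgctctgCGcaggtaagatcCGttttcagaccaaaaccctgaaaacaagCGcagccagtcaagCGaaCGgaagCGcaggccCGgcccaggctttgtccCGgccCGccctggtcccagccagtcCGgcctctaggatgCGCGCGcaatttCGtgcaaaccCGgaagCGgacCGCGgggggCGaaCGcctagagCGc
ZNF845: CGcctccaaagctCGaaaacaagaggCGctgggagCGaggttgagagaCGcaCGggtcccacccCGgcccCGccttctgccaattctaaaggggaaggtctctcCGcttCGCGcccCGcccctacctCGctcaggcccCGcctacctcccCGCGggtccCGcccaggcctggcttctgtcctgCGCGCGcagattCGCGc

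Genes present in every library of one clone and nearly absent from the other were counted with limits chosen after the values were seen, at least 2 TPM in all libraries of one and under 0.2 TPM in all of the other. By that rule 14 genes were present in clone 4.1 only and 10 in clone 4.2 only. Of the 10, 6 lie on chromosome 19, all in the zinc-finger block, and of the 14, 1 lies on chromosome 19 and 3 on the X chromosome. NLGN4X, a synaptic adhesion protein, had 18.5, 13.8 and 14.2 TPM in clone 4.1, was listed at 0 in 2 libraries of clone 4.2 and had 0.113 TPM in the other. HDX, a homeobox gene on the X chromosome, had 2.14 to 3.17 TPM in clone 4.1 and was listed at 0 in every library of clone 4.2 and of WT. NKX2-5, the homeobox factor of the heart, had 2.54 to 3.22 TPM against at most 0.169 TPM. UBD, a ubiquitin-like protein induced by inflammatory cytokines, had 12.3, 3.44 and 25.1 TPM in clone 4.1 and was listed at 0 in clone 4.2. SAA4, beside SAA2 on chromosome 11, had 4.93 to 9.90 TPM and was listed at 0 in clone 4.2. BATF and VANGL2 were low in clone 4.2 alone, since WT had 2.65 to 7.96 TPM of BATF and 3.36 to 6.50 TPM of VANGL2.

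Differences also ran along chromosomes. Each window of 10 Mb was scored by the mean of its genes, centred on the median of the library, and tested with limma. Of 306 windows 90 (29.4%) were called at an adjusted p under 0.05, 47 higher (15.4%) and 43 lower (14.1%) in clone 4.1. A window mean can be moved by single genes with large differences, so a called window need not be a shift of the whole region. The called window at 50 to 60 Mb of X (0.25, 49 genes) holds PAGE2 and XAGE1A. That at 180 to 190 Mb of chromosome 1 (0.38, 40 genes) holds OVAAL, and that at 50 to 60 Mb of chromosome 19 (-0.25) holds the zinc-finger block. On chromosome 13, 10 of 11 windows were called higher, from 0.35 to 0.76 on the log2 scale, and 9 of 14 on chromosome 11. On chromosome 3, 19 of 20 windows were called lower, from -0.44 to -0.17. On chromosome 6 all 8 called windows lie from 80 Mb on and were lower, of 9 windows there, and all 4 windows of chromosome 16 under 40 Mb were called lower. These chromosomes and limits were chosen after the values were seen. Together they hold 50 of the 90 called windows in 58 windows, and the other 248 windows hold 40.

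The median over genes gave the same picture, set beside WT. On chromosome 13 the median log2 difference between the clones over 308 genes was 0.58. Of these genes 90.6% fitted higher in clone 4.1, against 49.0% of all genes. Against WT the median of chromosome 13 was 0.14 in clone 4.1 and -0.47 in clone 4.2, which share the WT libraries, so clone 4.2 was further from WT. Of the 308 genes 33 were called (10.7%), 32 of them higher, against 2.63% of all genes called and 1.82% called higher. HSPH1, a heat-shock protein, had 125, 115 and 99.9 TPM in clone 4.1 and 61.4, 44.0 and 54.4 TPM in clone 4.2. MBNL2, a splicing factor, had 124, 107 and 127 TPM in clone 4.1 and 54.9, 42.8 and 55.8 TPM in clone 4.2. HSPH1 and MBNL2 were chosen after their values were seen. On chromosome 3 the median was -0.30, with -0.24 in clone 4.1 and 0.05 in clone 4.2 against WT. On chromosome 6 from 80 Mb it was -0.33 (-0.28 and 0.02 against WT), and on chromosome 16 under 40 Mb it was -0.35 (-0.38 and -0.07 against WT). On chromosome 16 from 40 Mb the clones did not differ in the median (0.02), and both were lower than WT by 0.31. On chromosome 11 the median was 0.27 (0.40 and 0.13 against WT). On each of these segments the library medians of clone 4.1 lay on one side of all those of clone 4.2; on chromosome 13 they were 0.31, 0.29 and 0.29 against -0.27, -0.26 and -0.32.

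Copy number was not measured, and its part in these differences was not tested. Genes named above lie on these segments. Some went with the median of their segment, such as MCM2, SEMA3B and EPHB3 on chromosome 3. On chromosome 11, SAA1, SAA2, FTH1 and SOX6 did so, and MMP1, MMP8 and BIRC3 did so in direction. MMP1, MMP8 and BIRC3 lie between 100 and 110 Mb, in a called window (0.28) whose mean includes them. The windows on either side of it were not called (-0.08 at 90 to 100 Mb, 0.06 at 110 to 120 Mb). The log2 differences of SAA1 (5.71) and MMP1 (5.17) were far larger than the chromosome 11 median of 0.27. Others went against their segment. H19 (-3.12) and PDGFD (-1.15) on chromosome 11 were lower in clone 4.1. IL32 on chromosome 16 (4.19) and SOD2 on chromosome 6 (1.88) were higher. The ribosomal protein genes nearest to a call also lie on these segments. RPL21, on chromosome 13, had 1176 to 1251 TPM in clone 4.1 against 650 to 851 TPM in clone 4.2 (log2 difference 0.76, adjusted p 0.0157). RPL14, on chromosome 3, had 892 to 1000 TPM against 1184 to 1285 TPM (log2 difference -0.41, adjusted p 0.0416). Outside all these segments 338 of 14073 genes (2.40%) were called, 233 higher and 105 lower.

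**Figure D5:**
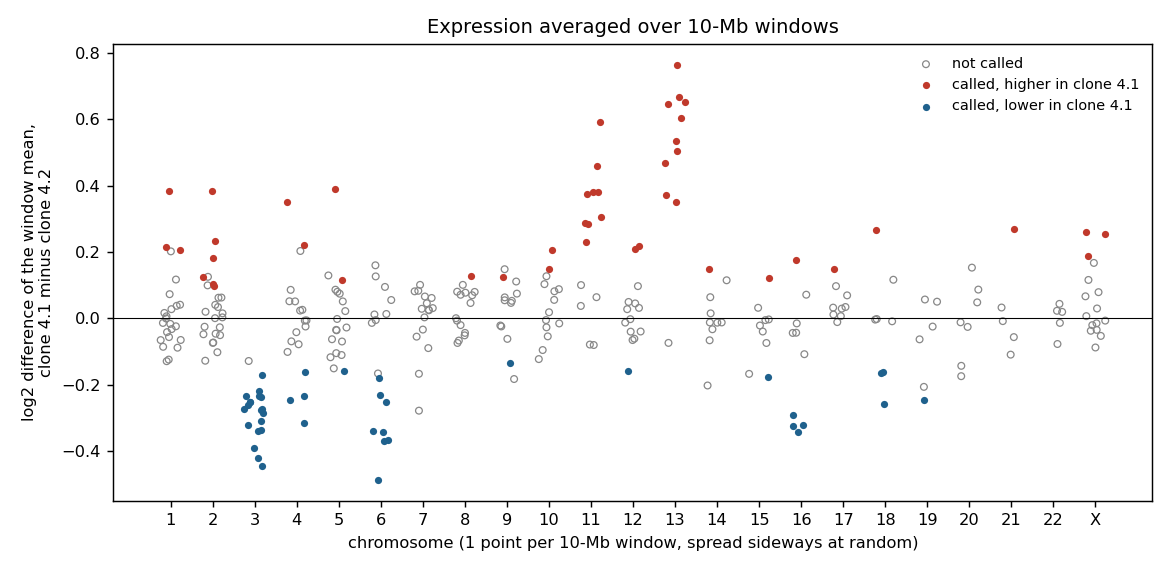
Each point is a 10-Mb window, placed by chromosome and spread sideways at random, with the log2 difference of the window mean, clone 4.1 minus clone 4.2, on the vertical axis, filled where called. Chromosome 13 stands highest, up to 0.76, chromosome 3 lies below 0 throughout, and the lowest window, at -0.49, is on chromosome 6.

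Transcript-level values showed changes that the gene sums do not. Of 58068 transcripts tested 443 (0.763%) were called, 313 higher (0.539%) and 130 lower (0.224%), from 357 genes. Of these, 145 transcripts belonged to 138 genes that were not called as genes. The 5 transcripts furthest higher in clone 4.1 were single forms of genes already named: WFDC2-204, PAGE2-202, SAA2-201, SAA1-201 and FDCSP-201. Among the 5 furthest lower, UBE2D3-217, of a ubiquitin-conjugating enzyme, was listed at 0 in clone 4.1 and had 12.0, 13.2 and 17.8 TPM in clone 4.2. The whole gene UBE2D3 had 166 to 172 TPM against 168 to 188 TPM and was not called. BBX-210, ELOVL1-203 and MED29-203 were listed at 0 in clone 4.1 in the same way, with 4.50 to 11.9 TPM in clone 4.2, and ACTG2-201 followed its gene. The gene BBX was itself lower, with 26.4 to 32.1 TPM in clone 4.1 and 40.7 to 68.2 TPM in clone 4.2. Its log2 difference of -0.83 (limma adjusted p 0.0244) was under the minimum size. For UBE2D3-217, BBX-210 and ELOVL1-203 some WT libraries were also listed at 0. DAP3, a mitochondrial ribosomal protein, was the 1 gene with transcripts called in opposite directions. DAP3-202 had 5.97, 2.90 and 7.59 TPM in clone 4.1 and at most 0.466 TPM in clone 4.2, while DAP3-215 had 0.423 to 0.599 TPM against 3.44 to 7.01 TPM, and the gene as a whole differed by 0.02.

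A pair of transcripts of TNIP1, an inhibitor of NF-kB signalling, was chosen after the values were seen. TNIP1-201 had 10.2, 5.34 and 13.8 TPM in clone 4.1 and was listed at 0 in every library of clone 4.2 and of WT. TNIP1-213 had 10.48 to 11.7 TPM and was listed at 0 in clone 4.2. The gene TNIP1 had 86.0 to 105 TPM in clone 4.1 and 39.6 to 66.4 TPM in clone 4.2, with a log2 difference of 0.81 (adjusted p 0.0164) under the minimum size. The transcript calls depended on the fit: 43 were called when only the 2 clones were fitted, 246 without library 2 of clone 4.2 and 281 without library 1 of clone 4.1. Transcript TPM are estimates in which reads shared by several forms are divided, so an exact 0 can be a failed estimate.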

How the data were processed

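The authors deposited gene-level and transcript-level TPM, which carry no counts. Per the submitters' processing notes DRAGEN and GRCh38 were used; the annotation release and strand setting are not given in the sources used here. Per the labels' protocols, polyadenylated RNA was captured on beads and primed with random hexamers. Each table also holds 6 columns that match no sample, and these were not used. Repeated lines were used once.

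Differences were fitted with limma 3.58.1 in R 4.3.3 on log2(TPM + 1), a scale that understates changes of low genes. All 21 WM115 libraries entered, with 1 coefficient per group and a trend of variance on mean. Features with at least 1 TPM in at least 3 of them were tested, all tests were two-sided, and p-values were adjusted by the Benjamini-Hochberg method over all features. Windows needed 5 genes, placed with GENCODE 29 (GRCh38) by identifier. The scripts were tested on simulated data.

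Genes were named by rule: SOX10, the 12 furthest each way among called genes that do not overlap, up to 6 called members of each list (or the 2 of smallest p), and the 5 transcripts furthest each way with any switch. The members, lists and rule were chosen with earlier results of these data known. A few named genes are not reported here. Alternatives changed the pseudocount, filter, scaling, variance model, groups fitted, block, mitochondrial term, window size and libraries.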

Additional observations from a re-analysis of the deposited data

Results flagged for a closer look

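A sample far from the rest of its group was looked for in the 4 WT libraries of each named gene, the only group here large enough. Of 90 such sets 8 had a WT library apart, and chance gives about 1 in 20. In 5 of the 8 the value is low: PAGE2 at 0.16 TPM, FDCSP at 0.33 TPM, XAGE1A at 0.071 TPM and GAGE2E at 0.162 TPM, each with the other WT libraries listed at 0, and PAGE1 at 0.178 TPM with the others at 0.082 to 0.086 TPM. AC008575.1 had 2.134 TPM in 1 WT library and was listed at 0 in the others. ACTG2 had 5.154 TPM in 1 WT library and 0.361 to 0.584 TPM in the others, all below the libraries of clone 4.2. TIGAR had 23.79 TPM in 1 WT library and 18.33 to 19.13 TPM in the others. The fitted difference between the clones does not use the WT level, but these libraries add to the shared spread.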

How the results depend on the processing

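The direction of all 64 named called genes held under every alternative that tested them, but for most alternatives it could not have changed. In all of them but S100A7 the libraries of the clones do not overlap. Leaving out libraries or changing the pseudocount, filter or variance model cannot reverse the sign of such a gene. The calls of the 64 were less stable. Of the 64, 48 lost the call within libraries above 7.5% mitochondrial share, 28 at or below it, 17 with the replicate block, 14 at a pseudocount of 0.1, 13 with no filter, 12 with only the 2 clones fitted and 6 with the mitochondrial set as a term. Leaving out 1 library of the clones lost 6 to 20. At a mean TPM of at least 5, 36 stayed called and 1 did not, the others being left out by that filter, and each of the other alternatives lost at most 1. The 447 calls became 195 at a mean TPM of at least 5 (fewer genes tested), 1148 with no minimum difference (59.1% higher against 69.4% in the fit as reported), and 78 and 160 within libraries above and at or below 7.5% mitochondrial share (fewer samples; 69.2% and 57.5% higher). Leaving out 1 library gave 297 to 516 calls, fewest without library 2 of clone 4.2 and most without library 3 of R1 clone 1.2, which enters only through the shared spread. The 443 transcript calls became 180 at a mean TPM of at least 5 and 43 with only the 2 clones fitted, and 246 to 413 without 1 library. The 90 window calls became 35 above 7.5% mitochondrial share and 47 of 161 with windows of 20 Mb. The 13 inflammatory calls became 1 above 7.5% mitochondrial share, and the 7 cancer-testis calls became 3 there and 2 at a mean TPM of at least 5. The SOX10 difference of -0.04 turned to 0.0550 above 7.5% mitochondrial share and ran from -0.2255 to 0.1023 when 1 library was left out, positive without library 2 of clone 4.1 (0.0388) and library 1 of clone 4.2 (0.1023). Among genes that were not called, LCP1 ran from -0.2525 (without library 2 of clone 4.1) to 0.0675 (without library 3), and KRT10 and MT-CO2 turned to 0.0755 and 0.0407 at or below 7.5%. Except where fewer genes or samples entered, the cause was not tested. The median over all genes stayed between -0.034 and 0.026 throughout. Without depth, differences of low genes cannot be given a counting error.

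When the 2 clones were fitted alone and blocked by replicate number, 288 genes and 0 transcripts were called by limma, and 6317 transcripts had an unadjusted p under 0.05. Whether the numbers pair the samples was not settled. Deviations of same-numbered libraries correlated at 0.24, 0.017 and 0.13, and those of differently numbered libraries at -0.29 to 0.18. The highest value was that of library 1 with library 1 (0.24). Library 2 of clone 4.1 correlated better with library 1 of clone 4.2 (0.10), and library 3 of clone 4.1 with library 2 of clone 4.2 (0.18). No paired value was therefore used above.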
